A study of Mus musculus with 12 samples.

Results

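The genes described here encode the contractile apparatus, the calcium handling system and the energy supply of skeletal muscle, and they were read in subcutaneous tumours. The list held 44 such genes, chosen by name. Of these, 40 had a probe set that carried a single gene symbol, among 12393 genes measured in all, and Mybpc2, Mybpc1, Neb and Ampd1 had none and were not analysed here. Where a gene had several such probe sets, the brightest on average stood for it. Of the 40 genes, 13 are typical of fast fibres, 6 of slow fibres, and 21 were put in neither list.

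The tumours were grown from C26, a colon carcinoma line of Balb/c mice, under the skin of the dorsal flank of Balb/c mice aged 6 weeks. On day 8, at a tumour size of about 50 mm3, 4 mice received CP-Dox, which is doxorubicin attached to a chimeric polypeptide carrier, 4 received free doxorubicin (Dox), and 4 received PBS. Tumours were taken 48 h later, and each was hybridized to its own Affymetrix array. All groups share the line, the strain and the site, no group received the carrier alone, and the dose is not given in the sources used here. Tumour and host are both mouse, so the probes read RNA of both. Signals were summarised by RMA as log2 values, on which a difference of 1 is a 2-fold difference. RMA gives no detection call, and probe sets differ in brightness, so each gene was compared with itself across arrays and not with other genes. Within a group, values are listed from replicate 1 to replicate 4, which are separate mice.

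Skeletal muscle fibres are fused, multinucleate cells packed with sarcomeres, in which thick filaments of myosin pull on thin filaments of actin. Calcium released from the sarcoplasmic reticulum binds troponin and lets myosin act, and a calcium pump ends the contraction. Fast and slow fibres use different genes for the same parts: myosin heavy and light chains, the troponin subunits, the pump and the Z-disc proteins each come in a fast and a slow form. Fast fibres are further split by their heavy chain into types IIa (Myh2), IIx (Myh1) and IIb (Myh4), and mouse limb and trunk muscles are rich in the last. Skin of the mouse flank lies on a thin sheet of striated muscle, and body wall muscle lies beneath it.

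Several libraries stood apart and touch the results below. The mean of 18 keratinocyte and skin markers lay 2.46 and 3.73 above the PBS mean in CP-Dox replicates 1 and 3, and between -0.12 and 0.11 in the other 10 arrays. The median signal of an array lay between 7.11 and 7.23, and no array was left out of the main comparisons. Smooth muscle markers stayed within -0.20 to 0.05 of the PBS mean in CP-Dox tumours, -0.10 to 0.00 in Dox tumours and -0.15 to 0.20 in PBS tumours. Heart muscle markers lay at -0.15 to 0.39 in CP-Dox tumours, -0.09 to 0.09 in Dox tumours and -0.10 to 0.11 in PBS tumours. Of 13 markers of colon epithelium, 1 (Krt18) had a range above 3, and the colon identity factor Cdx2 lay between 5.06 and 5.44 in all 12 arrays. Krt8, Cdh1, Epcam and Krt20 had ranges of 2.88, 2.61, 2.58 and 2.07, and the rest, Cdx2 among them, at most 0.59. The median range over all genes was 0.69. The share of carcinoma cells in each tumour was not tested.

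The muscle genes differed widely between tumours of the same group, and their range over the 12 arrays exceeded that of most genes measured. Of the 40 genes, 27 had a range above 3 over the 12 arrays, compared with 2.27% of all genes. The median range was 3.86 for the 40 genes and 0.69 for all genes, and 11 of the 20 genes with the widest range on the array were in the list. By fibre type, 12 of 13 fast genes, 0 of 6 slow genes and 15 of 21 in neither list passed a range of 3. The median range was 6.92 for fast genes, 1.03 for slow genes and 3.84 for the remaining genes. The standard deviation within groups had a median of 2.57 for fast genes, 0.26 for slow genes and 0.18 over all genes. In a tumour sample, fewer muscle fibres and less RNA per fibre cannot be told apart.

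**Figure D1:**
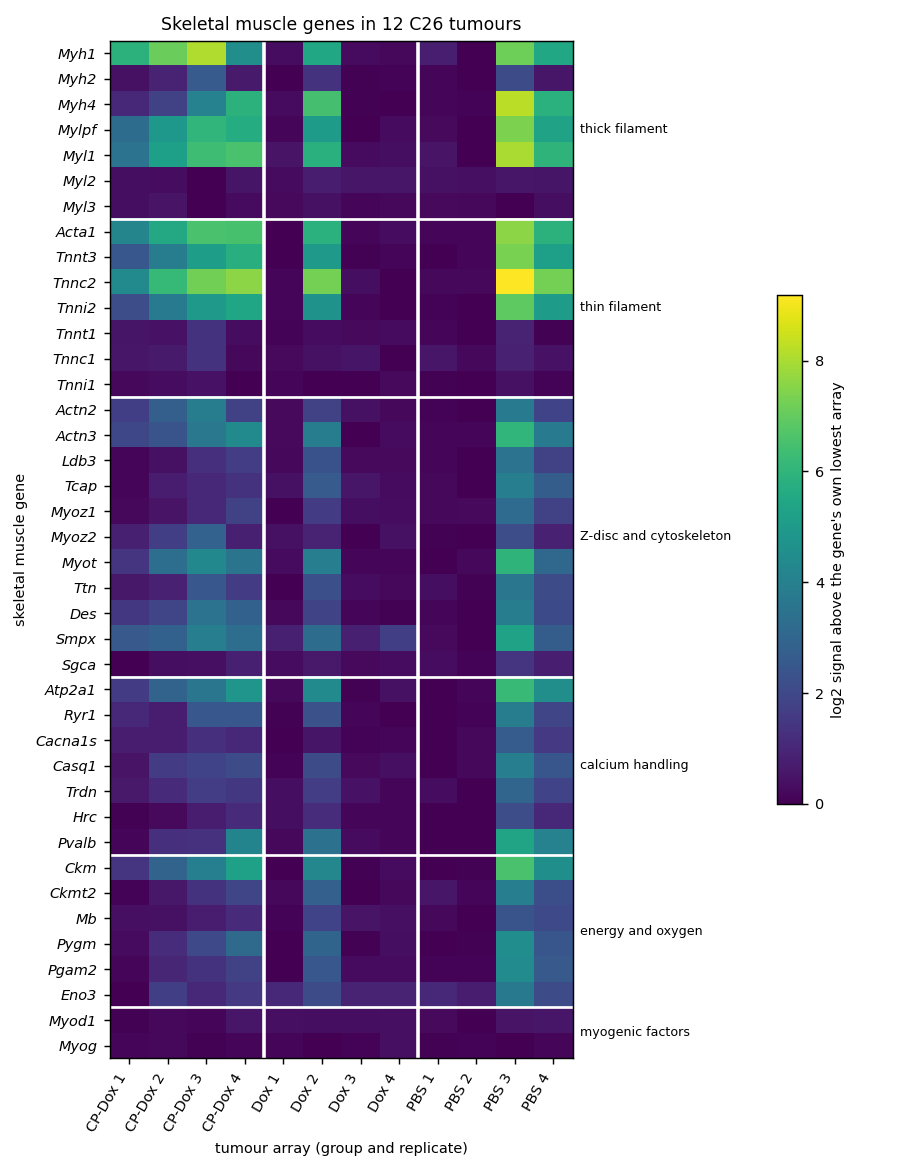
Signal of the 40 skeletal muscle genes (rows, grouped by role) in the 12 tumour arrays (columns, CP-Dox, Dox and PBS replicates 1 to 4), as log2 signal above the gene's own lowest array. PBS replicate 3 was the highest array for 29 of the 40 genes, and PBS replicate 2 was the lowest for 16.

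Fast fibre genes were high in some tumours of each group, and low in others of the Dox and PBS groups. Expressed as the mean over the 13 genes of the difference from each gene's own 12-array mean, they stood at -0.38, 0.75, 1.80 and 2.06 in CP-Dox tumours, at -2.33, 1.85, -2.34 and -2.31 in Dox tumours and at -2.32, -2.41, 3.73 and 1.90 in PBS tumours. High values therefore occurred in CP-Dox replicates 3 and 4, Dox replicate 2 and PBS replicates 3 and 4, and CP-Dox replicates 1 and 2 lay in between. The 3 other Dox tumours and PBS replicates 1 and 2 lay between -2.41 and -2.31. The same mean over the 6 slow genes moved less, at 0.02, 0.22, 0.57 and -0.08 in CP-Dox tumours, -0.21, 0.02, -0.19 and -0.16 in Dox tumours and -0.20, -0.31, 0.37 and -0.06 in PBS tumours. Taken singly, Myoz2 had a range of 2.89, Tnnt1 and Tnnc1 of 1.34 each, and Myl2, Myl3 and Tnni1 of 0.72, 0.50 and 0.46. All 6 slow genes were among the dimmest 40% of genes by mean signal, and whether weak signal kept their range small was not tested. The difference of fast minus slow was -0.40, 0.54, 1.23 and 2.15 in CP-Dox tumours, -2.12, 1.83, -2.15 and -2.16 in Dox tumours and -2.12, -2.11, 3.35 and 1.96 in PBS tumours. The groups overlapped throughout, since Dox replicate 2 and PBS replicates 3 and 4 reached or passed most CP-Dox tumours.

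**Figure D2:**
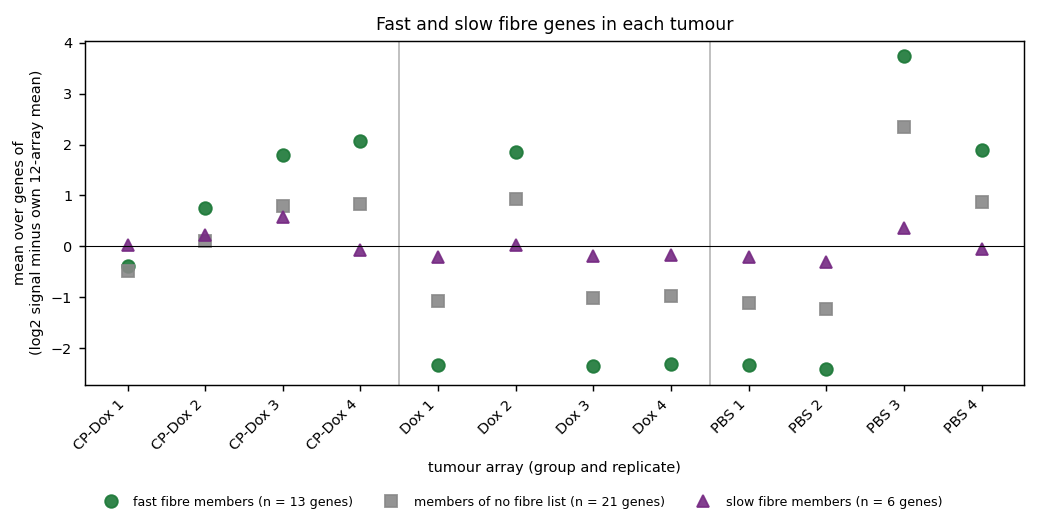
Mean over genes of the log2 signal minus the gene's own 12-array mean (vertical axis) in each tumour array (horizontal axis) for 13 fast fibre genes (circles), 21 genes of neither list (squares) and 6 slow fibre genes (triangles). The mean of the fast genes spanned -2.41 to 3.73, while that of the slow genes stayed between -0.31 and 0.57.

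Thick filament genes showed wide swings and also a split between the myosin isoforms. Myh1, the type IIx heavy chain, was at 9.38, 10.54, 11.55 and 8.01 in CP-Dox tumours, 3.78, 8.96, 3.74 and 3.66 in Dox tumours and 4.25, 3.47, 10.62 and 8.93 in PBS tumours. It was high in all 4 CP-Dox tumours, highest in replicate 3, whereas only 1 of 4 Dox tumours and 2 of 4 PBS tumours were high. Its mean was 9.87 ± 1.52 in CP-Dox tumours, 5.03 ± 2.62 in Dox tumours and 6.82 ± 3.50 in PBS tumours (SD, n = 4 each). Myh4, the type IIb heavy chain, was at 4.73, 5.51, 7.75 and 9.59 in CP-Dox tumours, 3.97, 10.17, 3.75 and 3.68 in Dox tumours and 3.81, 3.77, 11.93 and 9.57 in PBS tumours. PBS replicate 3, Dox replicate 2, CP-Dox replicate 4 and PBS replicate 4 led for this gene, and CP-Dox replicates 1 and 2 were within 1.82 of its lowest array. Myh2, the type IIa heavy chain, was at 5.01, 5.50, 7.23 and 5.26 in CP-Dox tumours, 4.60, 5.94, 4.66 and 4.68 in Dox tumours and 4.70, 4.59, 6.68 and 5.17 in PBS tumours, with CP-Dox replicate 3 and PBS replicate 3 the highest.

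The heavy chains thus ranked the tumours differently, and 2 CP-Dox tumours made this plain. CP-Dox replicate 1 lay 5.91 above the lowest array for Myh1 but 1.04 above it for Myh4, and CP-Dox replicate 2 lay 7.07 and 1.82 above. Dox replicate 2, at 5.49 for Myh1 and 6.48 for Myh4, lay below both of these tumours for Myh1 and above both for Myh4. PBS replicate 3, at 7.15 and 8.24, lay above both for each gene. Between CP-Dox replicates 3 and 4, a pair of single arrays singled out after their values were seen and not tested, 15 genes were higher and 25 lower in replicate 3. Replicate 3 exceeded replicate 4 by 3.54 for Myh1, 2.09 for Myoz2, 2.09 for Actn2, 1.97 for Myh2, 1.16 for Tnnc1 and 1.02 for Tnnt1. It lay below replicate 4 by differences of -2.82 for Pvalb, -1.84 for Myh4, -1.29 for Ckm, -1.19 for Atp2a1 and -1.15 for Pygm. These are the widest differences of the pair, and the fibre lists did not divide by them: of the slow genes Myl2 differed by -0.53 and Myl3 by -0.26, and of the fast genes Mylpf by 0.34. CP-Dox replicate 3 also carried the keratinocyte markers and replicate 4 did not, and the part of that difference in these values was not tested.

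The promoters of Myh1 and Myh4 are shown because these neighbours diverged between tumours, and those of Acta1 and Ckm because both followed the fast genes. In the reference annotation the myosin genes lie on chromosome 11 in the order Myh3, Myh2, Myh1, Myh4, Myh8 and Myh13. Each line gives the 250 bases before the annotated start in RefSeq on GRCm38.p6, 5′ to 3′ on the strand of the gene. Capitals mark matches on either strand to the MEF2 consensus, to the CArG box, to the E-box CAGCTG, the related E-box CAGGTG and the element TATAAA.
Myh1 (chr11:67199852-67200101, plus strand): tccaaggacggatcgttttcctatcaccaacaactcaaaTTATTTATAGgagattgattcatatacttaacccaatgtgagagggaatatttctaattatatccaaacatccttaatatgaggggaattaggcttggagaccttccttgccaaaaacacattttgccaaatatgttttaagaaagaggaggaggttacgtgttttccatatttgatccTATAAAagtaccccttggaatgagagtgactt
Myh4 (chr11:67237562-67237811, plus strand): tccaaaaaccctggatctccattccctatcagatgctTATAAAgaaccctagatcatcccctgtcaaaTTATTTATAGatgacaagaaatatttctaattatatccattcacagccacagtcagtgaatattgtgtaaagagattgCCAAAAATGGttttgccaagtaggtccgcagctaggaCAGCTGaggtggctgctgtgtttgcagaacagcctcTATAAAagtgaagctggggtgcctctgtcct
Acta1 (chr8:123894776-123895025, minus strand): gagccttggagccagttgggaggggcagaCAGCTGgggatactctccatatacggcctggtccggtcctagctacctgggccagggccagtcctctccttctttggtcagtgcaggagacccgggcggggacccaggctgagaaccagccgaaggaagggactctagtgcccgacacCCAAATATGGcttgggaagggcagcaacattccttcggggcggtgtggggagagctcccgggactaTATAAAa
Ckm (chr7:19410844-19411093, plus strand): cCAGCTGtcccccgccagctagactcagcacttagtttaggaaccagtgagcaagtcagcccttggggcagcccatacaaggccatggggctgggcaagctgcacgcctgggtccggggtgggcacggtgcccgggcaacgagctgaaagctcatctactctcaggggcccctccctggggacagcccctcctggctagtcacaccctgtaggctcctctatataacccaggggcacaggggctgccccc

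Myh1 and Myh4 held a MEF2 match of the same letters, at -211 in Myh1 and at -182 in Myh4, within which TATAAA also occurs on the opposite strand. A further TATAAA lay at -32 in Myh1 and at -31 in Myh4. Another TATAAA at -213, a CArG box at -104 and CAGCTG at -67 were found in the Myh4 window and not in that of Myh1. Acta1 held CAGCTG at -221, a CArG box at -73 and TATAAA at -7, and Ckm held CAGCTG at -249 only. The longest stretch common to the Myh1 and Myh4 windows was 20 bases. RefSeq promoter windows, 250 bases before to 50 after the start, were matched for 32 of the 40 genes, 38 windows in all. CAGCTG, the form of E-box preferred by MyoD-family factors, occurred in 55.3% of these windows and in 16.3% of all 32851 promoter windows. The MEF2 consensus occurred in 15.8% against 3.19%, the CArG box in 13.2% against 1.63%, TATAAA in 18.4% against 13.6% and CAGGTG in 21.1% against 20.2%. These are counts of letters, with no test and no bearing on whether a factor was bound.

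The fast light chains followed the same tumours. Mylpf, the phosphorylatable regulatory light chain, was at 8.27, 9.96, 11.09 and 10.75 in CP-Dox tumours, 5.22, 10.10, 5.08 and 5.31 in Dox tumours and 5.28, 5.05, 12.42 and 10.34 in PBS tumours. Myl1, the fast alkali light chain, was at 7.69, 9.36, 10.52 and 10.75 in CP-Dox tumours, 4.67, 10.02, 4.46 and 4.53 in Dox tumours and 4.68, 4.2, 12.21 and 10.16 in PBS tumours. In both genes the 3 low Dox tumours and PBS replicates 1 and 2 were far below all CP-Dox tumours, and Dox replicate 2 and PBS replicates 3 and 4 lay among or above them. The slow light chains did not move with them. Myl2, the slow and cardiac regulatory light chain, was at 5.10, 5.06, 4.76 and 5.29 in CP-Dox tumours, 5.02, 5.48, 5.33 and 5.32 in Dox tumours and 5.18, 5.13, 5.30 and 5.27 in PBS tumours. Myl3, the slow and cardiac essential light chain, had a range of 0.50 over the 12 arrays, and PBS replicate 3 was its lowest array. Neither slow gene separated the tumours rich in fast genes from the rest. A dimmer probe set of Myl3 read 4.72 in PBS replicate 3 and at most 4.35 in the others.

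On the thin filament, the actin and fast troponin genes behaved as a block. Acta1, skeletal alpha-actin, was at 10.15, 11.54, 12.55 and 12.51 in CP-Dox tumours, 5.99, 11.85, 6.14 and 6.30 in Dox tumours and 6.15, 6.10, 13.59 and 11.91 in PBS tumours. The lowest CP-Dox tumour was at 10.15, Dox replicate 2 and PBS replicates 3 and 4 were at 11.85 or above, and the remaining tumours were at 5.99 to 6.30. Tnnc2, the fast troponin C that binds calcium, had the widest range of the list, 9.18, and was at 8.30, 10.07, 11.14 and 11.51 in CP-Dox tumours, 4.03, 11.17, 4.25 and 3.92 in Dox tumours and 4.10, 4.11, 13.09 and 11.18 in PBS tumours. Tnnt3, the fast troponin T, was at 6.77, 8.18, 9.42 and 10.03 in CP-Dox tumours, 4.29, 9.24, 4.34 and 4.40 in Dox tumours and 4.29, 4.40, 11.61 and 9.46 in PBS tumours. Tnni2, the fast inhibitory subunit, had a range of 6.92, with PBS replicate 3 at 11.84 and PBS replicate 2 at 4.92. All 3 fast troponin genes were lowest in Dox replicates 1, 3 and 4 and PBS replicates 1 and 2.

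The slow troponins moved little, and in another order. Tnnt1, the slow troponin T, was at 5.36, 5.29, 6.19 and 5.17 in CP-Dox tumours, 4.95, 5.16, 5.10 and 5.13 in Dox tumours and 4.97, 4.85, 5.72 and 4.89 in PBS tumours. Tnnc1, the slow and cardiac troponin C, was at 5.95, 6.06, 6.75 and 5.59 in CP-Dox tumours, 5.64, 5.81, 5.93 and 5.40 in Dox tumours and 5.95, 5.61, 6.26 and 5.87 in PBS tumours. Both were highest in CP-Dox replicate 3 and next in PBS replicate 3, and neither was raised in Dox replicate 2, CP-Dox replicate 4 or PBS replicate 4 as the fast forms were. Tnni1, the slow inhibitory subunit, had a range of 0.46.

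**Figure D3:**
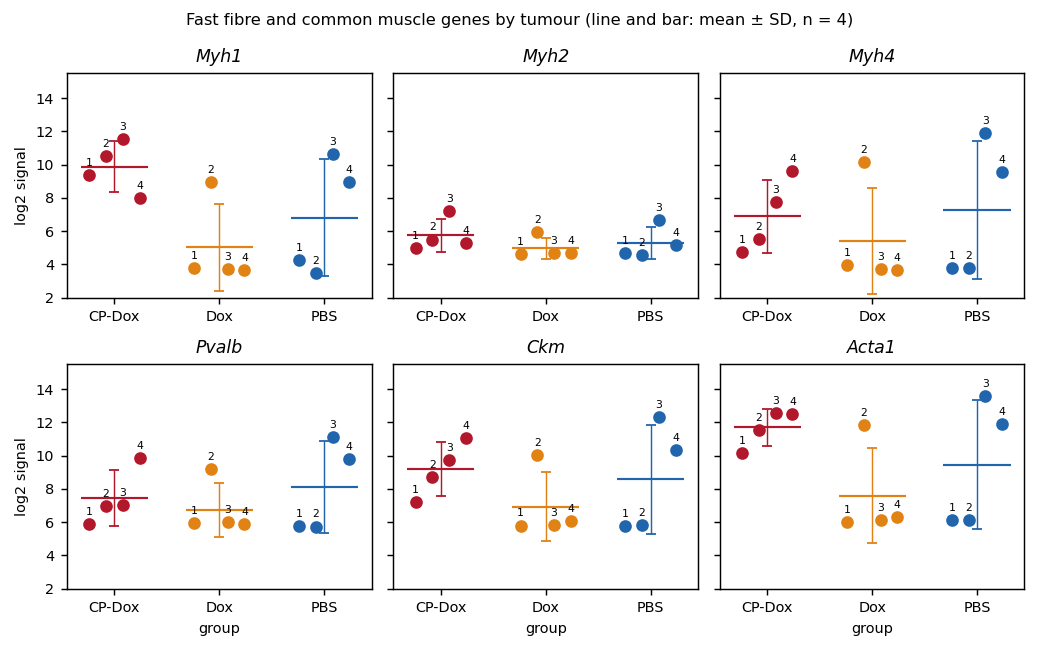
Log2 signal (vertical axis) of 3 fast myosin heavy chain genes, Pvalb, Ckm and Acta1 in each tumour, by group (horizontal axis, CP-Dox, Dox, PBS), with the replicate number beside each point, a line at the group mean and a bar of 1 SD either side (n = 4). CP-Dox replicates 1 to 3 stood at 9.38 to 11.55 for Myh1 and at 4.73 to 7.75 for Myh4. Levels are to be compared within a gene and not between genes.

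Z-disc and cytoskeletal genes anchor the thin filaments and hold the sarcomeres in register. Actn2, the alpha-actinin of all fibres, was at 6.53, 7.61, 8.69 and 6.60 in CP-Dox tumours, 5.04, 6.59, 5.25 and 5.03 in Dox tumours and 4.90, 4.82, 8.65 and 6.68 in PBS tumours, highest in CP-Dox replicate 3. Des, the muscle intermediate filament desmin, was at 7.68, 8.10, 9.68 and 9.04 in CP-Dox tumours, 6.37, 8.06, 6.31 and 6.24 in Dox tumours and 6.33, 6.19, 10.03 and 8.25 in PBS tumours. The lowest CP-Dox tumour read 7.68 for Des, whereas 3 of the 4 Dox tumours read 6.24 to 6.37. Ttn, the giant elastic protein titin, was at 5.09, 5.36, 6.98 and 6.10 in CP-Dox tumours, 4.51, 6.75, 4.83 and 4.72 in Dox tumours and 4.86, 4.55, 8.13 and 6.65 in PBS tumours. Actn3, the alpha-actinin of fast fibres, was 8.26 ± 1.13 in CP-Dox tumours, 6.25 ± 1.87 in Dox tumours and 7.68 ± 2.89 in PBS tumours (SD, n = 4 each). The myozenins, which tether calcineurin at the Z-disc, split by fibre type. Myoz1, the fast form, was at 6.85, 7.16, 7.69 and 8.45 in CP-Dox tumours, 6.67, 8.29, 7.0 and 6.96 in Dox tumours and 6.84, 6.89, 9.87 and 8.46 in PBS tumours, with PBS replicate 3 the highest. Myoz2, the slow form, was at 5.34, 6.24, 7.41 and 5.32 in CP-Dox tumours, 4.92, 5.41, 4.52 and 4.93 in Dox tumours and 4.58, 4.55, 6.69 and 5.37 in PBS tumours, with CP-Dox replicate 3 the highest. Myoz2 was the most variable of the slow genes, with a range of 2.89. Ranges of the other genes of this class were 5.98 for Myot, 5.30 for Smpx, 3.94 for Tcap, 3.49 for Ldb3 and 1.42 for Sgca, and PBS replicate 3 was the highest array for all 5.

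Calcium handling genes also peaked in PBS replicate 3. Atp2a1, the fast sarcoplasmic reticulum pump SERCA1, was at 7.43, 8.73, 9.42 and 10.61 in CP-Dox tumours, 6.01, 10.18, 5.87 and 6.23 in Dox tumours and 5.82, 5.97, 12.01 and 10.37 in PBS tumours. Pvalb, the cytosolic calcium buffer parvalbumin of the fastest fibres, was at 5.89, 6.95, 7.04 and 9.86 in CP-Dox tumours, 5.94, 9.18, 5.99 and 5.86 in Dox tumours and 5.74, 5.73, 11.10 and 9.79 in PBS tumours. For Pvalb, CP-Dox replicates 1 to 3 lay within 1.31 of its lowest array, while CP-Dox replicate 4, Dox replicate 2 and PBS replicates 3 and 4 read 9.18 to 11.10. Ryr1, the calcium release channel, was at 5.78, 5.43, 7.20 and 7.21 in CP-Dox tumours, 4.75, 6.99, 4.88 and 4.71 in Dox tumours and 4.71, 4.80, 8.56 and 6.64 in PBS tumours. Cacna1s, its voltage sensor in the cell membrane, was at 5.10, 5.09, 5.64 and 5.45 in CP-Dox tumours, 4.40, 4.93, 4.50 and 4.55 in Dox tumours and 4.40, 4.59, 7.07 and 5.93 in PBS tumours. Casq1, the calcium store of fast fibres, was at 6.16, 7.30, 7.53 and 7.75 in CP-Dox tumours, 5.74, 7.80, 5.91 and 6.04 in Dox tumours and 5.67, 5.88, 9.57 and 8.11 in PBS tumours. For Ryr1 and Casq1, Dox replicate 2 was the only Dox tumour in the upper range, and for Cacna1s all 4 Dox tumours were below all 4 CP-Dox tumours. Trdn, which links the release channel to the calcium store, and Hrc, a luminal calcium binding protein, had ranges of 3.01 and 2.18.

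Energy and oxygen genes were highest in PBS replicate 3 as well. Ckm, the cytosolic creatine kinase that regenerates ATP, was at 7.20, 8.72, 9.74 and 11.03 in CP-Dox tumours, 5.79, 10.04, 5.83 and 6.06 in Dox tumours and 5.78, 5.82, 12.31 and 10.35 in PBS tumours. Mb, the oxygen store myoglobin, was at 5.44, 5.49, 5.78 and 6.20 in CP-Dox tumours, 5.16, 6.93, 5.56 and 5.45 in Dox tumours and 5.26, 5.08, 7.45 and 7.12 in PBS tumours. Eno3, the muscle enolase, ran from 7.93 to 9.63 in CP-Dox tumours, 8.83 to 10.01 in Dox tumours and 8.68 to 11.63 in PBS tumours, and CP-Dox replicate 1 was its lowest array. Mb was highest in PBS replicates 3 and 4 and Dox replicate 2, with CP-Dox tumours at 6.20 or below. Pygm, which breaks down glycogen, Pgam2, a glycolytic mutase, and Ckmt2, the mitochondrial creatine kinase, had ranges of 4.50, 4.44 and 3.94, each highest in PBS replicate 3.

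The myogenic factors of the list, Myod1 and Myog, were flat. Myod1, which commits cells to the muscle lineage, was at 5.18, 5.32, 5.23 and 5.67 in CP-Dox tumours, 5.51, 5.45, 5.48 and 5.48 in Dox tumours and 5.37, 5.12, 5.59 and 5.68 in PBS tumours. Myog, which drives the terminal differentiation of muscle cells, was at 5.43, 5.49, 5.37 and 5.48 in CP-Dox tumours, 5.48, 5.32, 5.40 and 5.66 in Dox tumours and 5.38, 5.38, 5.31 and 5.48 in PBS tumours, the smallest range of the 40 genes at 0.36. Neither followed the contractile genes, and with Tnni1, Myl3 and Myl2 they were the 5 genes with a range under 1.

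Set against PBS, CP-Dox left the muscle genes without a single call. Of the 40 genes, 0 were higher and 0 lower by limma at an adjusted p under 0.05, where 2.35% of all genes were higher and 3.23% lower. The lowest adjusted p of the 40 was 0.287, and 0 had an unadjusted p under 0.05, compared with 23.5% of all genes. Without PBS replicate 3, 6 of the 40 and 2284 of all 12393 genes had an unadjusted p under 0.05. The lowest adjusted p of the 40 was then 0.149. No gene had groups without overlap, against 4.31% of all genes on the higher side and 7.75% on the lower side. The 4 genes with the lowest p were Myh1 with a log2 fold change of 3.06 ± 1.67 (limma adjusted p = 0.287, standard error), Tnnt1 with 0.40 ± 0.23, Myoz2 with 0.78 ± 0.53 and Eno3 with -0.84 ± 0.59. Acta1 was at 2.25 ± 1.78 and Myh4 at -0.38 ± 2.04. The sign of Myh4 turned when any of 4 arrays was left out, to 0.34 without CP-Dox replicate 1, 0.08 without CP-Dox replicate 2, 1.18 without PBS replicate 3 and 0.39 without PBS replicate 4. In all, 22 of the 40 genes were above 0 and 18 below, and 44.1% of all genes were above 0. Such counts are not counts of separate observations, since the genes vary together across tumours. The median log2 fold change was 0.10 for the list and -0.036 for all genes, with 0.58 for fast, 0.13 for slow and -0.10 for the remaining genes. The list's median was -0.20 without PBS replicate 2 and 0.62 without PBS replicate 3. Without CP-Dox replicates 1 and 3, the arrays with keratinocyte markers, it was 0.17 and the count of calls stayed at 0.

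Set against PBS, free doxorubicin gave lower means for most muscle genes, again with 0 calls. Of all genes, 0% were called higher and 0% lower by limma, and 0 of the 40 muscle genes passed, with a lowest adjusted p of 0.995. At an unadjusted p under 0.05 there were 0 muscle genes, or 1 without PBS replicate 1 or 2, and 4.5% of all genes. Over all 12393 genes there were 590 without PBS replicate 1 and 638 without PBS replicate 2. No muscle gene had groups without overlap, against 1.71% of all genes on the higher and 2.13% on the lower side. The median log2 fold change was -0.84 for the list and 0.005 for all genes, with -1.75 for fast, -0.03 for slow and -0.79 for the remaining genes. Of the 40 genes, which vary together and are not separate observations, 36 were below 0, whereas 51.4% of all genes were above 0. The 4 lowest p belonged to Cacna1s with -0.91 ± 0.47, Myoz1 with -0.79 ± 0.64, Des with -0.95 ± 0.80 and Casq1 with -0.94 ± 0.80, each with a limma adjusted p of 0.995. Single arrays set the size of these means. The list's median was -1.33 without Dox replicate 2 and -0.10 without PBS replicate 3, and for fast genes it was -2.90 and -0.35.

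CP-Dox tumours exceeded Dox tumours in the mean of most muscle genes, and no gene of the list passed the limma threshold. By limma, 0 of 40 passed in either direction, where 0.0565% of all genes were higher and 0.169% lower, and the lowest adjusted p was 0.208. With array weights, Myh1 passed, at 5.38 with a limma adjusted p of 0.0292. At an unadjusted p under 0.05 there were 4 of the 40 genes, all higher, and 16.1% of all genes. This count was 11 without Dox replicate 2, 10 without PBS replicate 3, 6 without CP-Dox replicate 1, 2 without CP-Dox replicate 2 or Dox replicate 1, and 1 without CP-Dox replicate 3, Dox replicate 3 or Dox replicate 4. Over all 12393 genes it was 1991 with all arrays. In those fits, in the same order, it was 1579, 1864, 1393, 3497, 1584, 1265, 1534 and 1656. With all arrays the 4 genes were Myh1 with 4.84 ± 1.67, a 28.6-fold difference with a 95% interval of 1.19 to 8.49 on the log2 scale, Actn2 with 1.88 ± 0.80, Des with 1.88 ± 0.80 and Acta1 with 4.12 ± 1.78. The exact two-sided permutation test of 4 against 4 tumours gave Myh1 p = 0.0571, Actn2 p = 0.0571, Des p = 0.0571 and Acta1 p = 0.0857, unadjusted. Tnnt1 and Cacna1s were the 2 genes whose groups did not overlap, both higher, where 3.29% of all genes were higher and 6.34% lower without overlap. Each had an exact permutation p of 0.0286, the smallest that 70 splits allow, and limma adjusted p values of 0.40 and 0.461. The lowest CP-Dox and highest Dox tumours read 5.17 and 5.16 for Tnnt1, and 5.09 and 4.93 for Cacna1s. The median log2 fold change was 0.76 for the list and -0.03 for all genes, with 2.01 for fast, 0.26 for slow and 0.58 for the remaining genes. Of the 40, 34 were above 0 against 44.3% of all genes, and as they vary together they are not separate observations. Dox replicate 2 was the only Dox tumour with high fast genes, and without it the list's median was 1.24. Without CP-Dox replicates 1 and 3 the list's median was 0.76, Myh1 was at 4.24 with an adjusted p of 0.842, and 0 genes of the list passed. The CP-Dox comparisons share their CP-Dox arrays and the comparisons with PBS share their PBS arrays, so their values are not separate evidence.

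**Figure D4:**
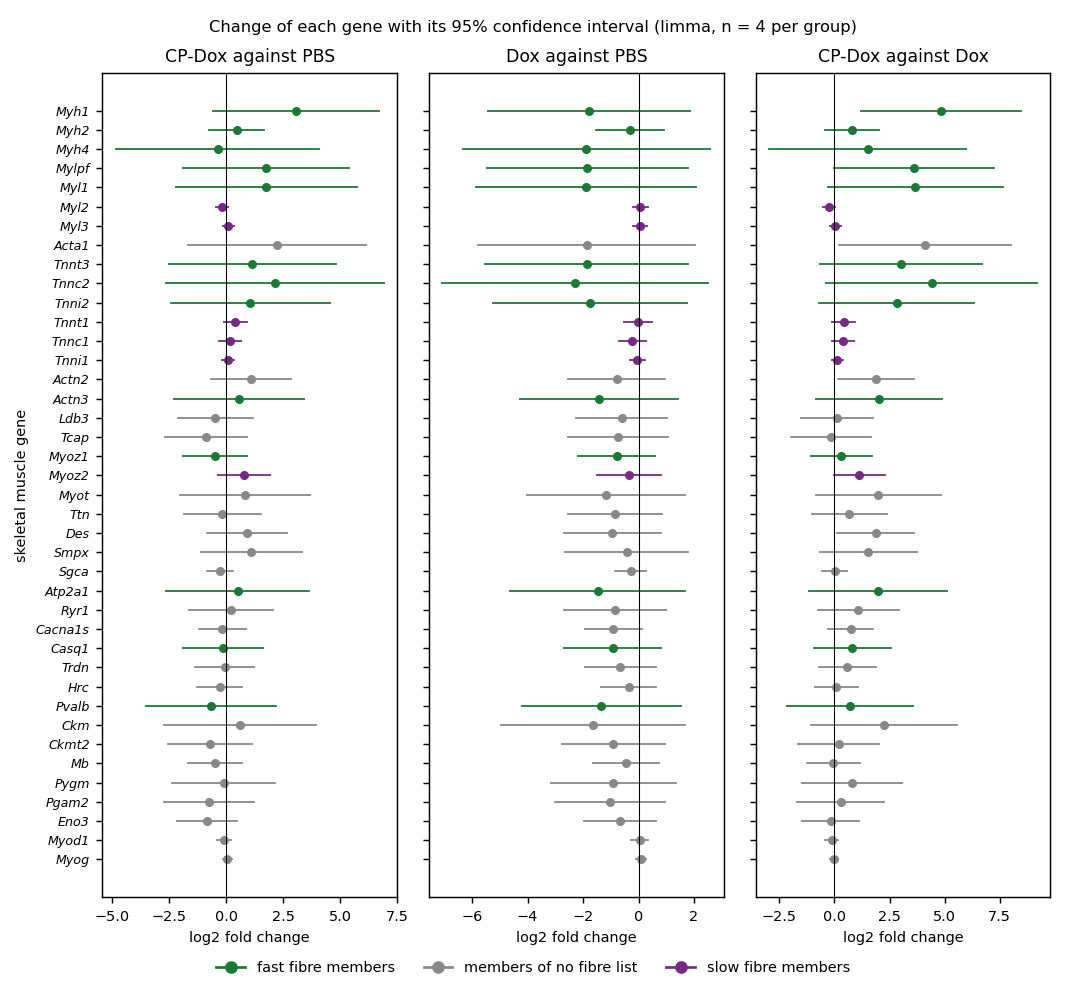
Log2 fold change (horizontal axis) of each of the 40 skeletal muscle genes (rows) in the 3 comparisons, with bars of the 95% confidence interval from limma (n = 4 tumours per group), coloured by fibre list. The intervals of Myh1, Acta1, Actn2 and Des in CP-Dox against Dox left out 0, and their adjusted p was 0.208 or higher.

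The precision was set by this spread. Standard errors of the fold changes had a median of 0.80 for the 40 genes and 0.13 for all genes, on the log2 scale, so a 2-fold difference in a typical muscle gene was not detectable with 4 tumours per group. Other probe sets of the same genes mostly gave the same order of tumours where they varied at all. The second probe set of Myh1 ran from 3.42 in Dox replicate 3 to 11.28 in CP-Dox replicate 3, and the third stayed between 4.58 and 4.88. The dimmer probe sets of Des, Mb and Myoz1 had ranges of 0.81, 0.43 and 0.97. Myh1, Myh2 and Myh4 are near-identical over much of their coding sequence, and whether a probe set reads more than its own gene was not tested.

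Other genes of muscle were read from lists grouped by function. None of 9 further slow fibre genes, 8 further fast genes, 12 other sarcomere genes, 17 membrane and excitation genes, 15 energy genes and 17 myogenic and satellite cell genes passed the limma threshold in any of the 3 comparisons. At an unadjusted p under 0.05 these 6 lists held 7 genes in CP-Dox against PBS, 0 in Dox against PBS and 9 in CP-Dox against Dox, where the shares of all genes were 23.5%, 4.5% and 16.1%. Ranges above 3 were found in 3 of the 9 slow genes, 2 of the 8 fast genes, 5 of the 12 sarcomere genes, 1 of the 17 membrane genes, 1 of the 15 energy genes and 0 of the 17 myogenic genes. Fhl1, a LIM protein of muscle, was at 7.88, 9.50, 10.05 and 8.29 in CP-Dox tumours, 6.09, 8.55, 5.93 and 5.87 in Dox tumours and 5.83, 5.32, 10.04 and 7.57 in PBS tumours. Sln, the peptide sarcolipin that inhibits the calcium pump, was at 5.76, 6.25, 7.90 and 6.51 in CP-Dox tumours, 4.73, 5.79, 4.41 and 4.84 in Dox tumours and 4.58, 4.56, 8.14 and 5.37 in PBS tumours. Both were highest in CP-Dox replicate 3 and PBS replicate 3, and lowest in PBS replicate 2 or Dox replicate 3. Myh7, the slow myosin heavy chain, had a range of 0.52, so that no tumour stood out for it. Car3, a carbonic anhydrase of slow fibres and of fat cells, was at 8.18, 9.99, 10.96 and 8.79 in CP-Dox tumours, 5.29, 8.59, 5.43 and 9.65 in Dox tumours and 5.86, 5.43, 8.95 and 9.21 in PBS tumours. It was high in Dox replicate 4, a tumour low in every fast gene, where the adipocyte markers lay 0.65 above the PBS mean, the highest of the 12 arrays, and the part of fat cells in this value was not tested.

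Among regulators, Myf6, the myogenic factor of mature fibres, was at 4.84, 5.39, 5.61 and 6.00 in CP-Dox tumours, 4.81, 6.35, 4.54 and 4.62 in Dox tumours and 4.40, 4.48, 7.23 and 5.41 in PBS tumours. Mef2c, a transcription factor of muscle and other cells, was at 5.55, 6.85, 6.57 and 6.51 in CP-Dox tumours, 6.38, 7.38, 6.75 and 6.21 in Dox tumours and 5.96, 6.38, 8.27 and 7.34 in PBS tumours. PBS replicate 3 was the highest array for both, and Dox replicate 2 the highest of its group. The satellite cell factor Pax7 had a range of 0.58, the early factor Myf5 a range of 0.69 and the embryonic myosin Myh3 a range of 0.35. Chrna1, the alpha subunit of the acetylcholine receptor, named after its values were seen, read 11.32 in CP-Dox replicate 2 and between 8.08 and 9.52 in the other tumours, an order unlike that of the contractile genes.

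Of 17 measured genes linked to muscle atrophy, 4 rose in CP-Dox against PBS and 0 fell, where 2.35% of all genes rose and 3.23% fell. Foxo1 and Foxo3, transcription factors that switch on protein breakdown, rose by 0.62 ± 0.11 and 0.94 ± 0.21 on the log2 scale (limma adjusted p = 0.00851 and 0.0254). Ddit4, an inhibitor of mTORC1, rose by 1.03 ± 0.26 (limma adjusted p = 0.0416), and Map1lc3b, a component of autophagosomes, rose by 0.41 ± 0.09 (limma adjusted p = 0.0251). These 4 genes are expressed in many cell types. Foxo1 was at 8.13, 7.99, 8.33 and 7.84 in CP-Dox tumours, 7.84, 7.66, 7.69 and 7.62 in Dox tumours and 7.54, 7.36, 7.50 and 7.40 in PBS tumours. Foxo3 was at 9.59, 9.02, 9.89 and 9.04 in CP-Dox tumours, 9.23, 8.82, 8.91 and 8.46 in Dox tumours and 8.64, 8.31, 8.41 and 8.42 in PBS tumours. CP-Dox replicates 1 and 3, which carried the keratinocyte markers, were the highest for Foxo1 and Foxo3. Without these 2 tumours 0 of the 4 genes passed, with log2 fold changes of 0.47, 0.59, 0.57 and 0.33 for Foxo1, Foxo3, Ddit4 and Map1lc3b and limma adjusted p of 0.124, 0.245, 0.379 and 0.278. With fewer CP-Dox tumours in that fit, 0 of all genes were called higher and 2 lower, against 291 and 400 with all arrays. With the mean of all probe sets of a gene, Foxo1 at 0.29, Foxo3 at 0.61 and Map1lc3b at 0.35 missed the threshold (limma adjusted p = 0.0884, 0.0544 and 0.0587). Foxo1 passed whichever single array was left out. Foxo3, at 0.77 to 1.06, missed it without CP-Dox replicate 1 or 3 or PBS replicate 2, 3 or 4, and Map1lc3b, at 0.37 to 0.46, without CP-Dox replicate 1 or 3 or PBS replicate 2 or 3. Ddit4 passed with all arrays but, among the fits without a single array, at 0.86 to 1.23, only without CP-Dox replicate 2 or 4 or Dox replicate 1. Fbxo32, the muscle ubiquitin ligase atrogin-1, was at 8.10, 7.80, 7.99 and 7.59 in CP-Dox tumours, 7.57, 6.94, 6.85 and 6.32 in Dox tumours and 6.79, 6.39, 7.53 and 6.78 in PBS tumours. Its log2 fold change of 1.0 ± 0.27 in CP-Dox against PBS did not pass (limma adjusted p = 0.0540). All 4 CP-Dox tumours were above all 4 PBS tumours for Fbxo32, as for 4.31% of all genes. Eif4ebp1 of the same list went the other way, at -0.45 ± 0.12, and did not pass either (limma adjusted p = 0.0504). In Dox against PBS and in CP-Dox against Dox, 0 of the 17 passed, with a lowest limma adjusted p of 0.995 and 0.135, and 3 and 7 genes were at an unadjusted p under 0.05, against 4.5% and 16.1% of all genes.

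The genes outside the list whose pattern lay closest to the mean of the fast genes were found by the root mean square difference over the 12 arrays, after subtracting each gene's own mean. The lowest values were 0.93 for Pdk4, a kinase that restrains pyruvate oxidation, 0.95 for Apobec2, a muscle member of a deaminase family, 1.0 for Fhl1, 1.10 for Pdlim3, 1.12 for Asb5 and 1.12 for Cmya5. Myom2, a protein of the sarcomeric M-band, had 1.13, Cryab, a small heat shock protein, 1.15, Tmod4, which caps thin filaments, 1.16, and Ppp1r3c, a glycogen-targeting subunit of protein phosphatase, 1.17. The median over all genes was 2.19. Pdk4 was at 6.67, 5.16, 7.77 and 7.58 in CP-Dox tumours, 4.68, 7.76, 4.85 and 4.70 in Dox tumours and 4.66, 4.18, 8.92 and 6.72 in PBS tumours, and Apobec2 was at 4.43, 5.90, 6.42 and 6.36 in CP-Dox tumours, 4.53, 7.27, 4.54 and 4.34 in Dox tumours and 4.47, 4.2, 8.83 and 6.96 in PBS tumours. Within the list, Atp2a1 at 0.28, Actn3 at 0.31 and Ckm at 0.34 were the closest to the fast mean, of which Atp2a1 and Actn3 are part.

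Markers of other cell types were set beside these values. Of the 18 keratinocyte and skin markers, 12 had a range above 3 and 0 passed in any comparison, and Krt14, a keratin of the basal layer, was at 10.17, 5.57, 11.86 and 5.48 in CP-Dox tumours, 5.52, 5.46, 5.47 and 5.57 in Dox tumours and 5.41, 5.39, 5.22 and 5.70 in PBS tumours. The keratinocyte level was high in CP-Dox replicates 1 and 3. Of these, replicate 3 was high in fast genes, at 1.8 against their 12-array mean, and replicate 1 was at -0.38. The keratinocyte level was not high in PBS replicate 3, PBS replicate 4, Dox replicate 2 or CP-Dox replicate 4, which were also high in fast genes. In CP-Dox against PBS, the endothelial genes Pecam1 and Emcn rose by 1.02 ± 0.15 and 0.86 ± 0.13 on the log2 scale (limma adjusted p = 0.00502 and 0.00536), 2 of 9 in that list, where 2.35% of all genes rose. Lpl, 1 of 8 adipocyte markers, rose by 1.67 ± 0.42, Dcn, 1 of 8 fibroblast markers, by 0.52 ± 0.11 and Cdh1, 1 of 13 colon markers, by 1.25 ± 0.33 (limma adjusted p = 0.0404, 0.0198 and 0.0483). S100a8 and Lcn2, 2 of 8 neutrophil markers, rose by 2.09 ± 0.50 and 2.40 ± 0.63 (limma adjusted p = 0.0354 and 0.0483). Alas2, 1 of 4 erythroid markers, fell by 1.48 ± 0.24 (limma adjusted p = 0.00688), where 3.23% of all genes fell. The median log2 fold change was 0.01 in the adipocyte, colon and neutrophil lists, 0.17 in the fibroblast list and -0.3 in the erythroid list. It was 0.4 in the endothelial list. Without CP-Dox replicates 1 and 3, 0 of the 12393 genes were called higher in CP-Dox against PBS, so none of these rises passed there, with Pecam1 at 1.02 and Emcn at 0.83 (limma adjusted p = 0.0943 and 0.0935). Alas2, at -1.21, did not pass either (limma adjusted p = 0.12). Cdh1 read 7.03, 5.98, 7.88 and 6.29 in CP-Dox tumours, highest in the 2 tumours with keratinocyte markers. No gene of the smooth muscle, heart, or nerve and Schwann lists passed, with lowest limma adjusted p of 0.0867, 0.121 and 0.203. Of these lists, 0 of 10 smooth muscle, 0 of 8 heart and 0 of 7 nerve genes had a range above 3. The part of any of these cells in the muscle values was not tested.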

How the data were processed

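RNA of 12 tumours was hybridized to Affymetrix mouse arrays. Per the submitters' processing notes the authors used RMA and Partek, without versions, and deposited 1 log2 value per probe set and array. Array medians lay between 7.106 and 7.227, and no further normalization was applied. Of 22690 probe sets, 64 controls, 691 with several symbols and 1555 without an entry in the platform annotation were left out. The remaining 20380 gave 12393 genes, each by its probe set with the highest mean. Groups came from sample titles, and the labels name no batch. The 40 genes, the lists and the tests were chosen with earlier results of these data known.

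All genes were fitted together in limma 3.58.1 (R 4.3.3), with the 3 groups in 1 model and Benjamini-Hochberg adjustment at 0.05. Single genes were also given a two-sided exact permutation test. The script was tested on simulated data. Always named were the defining fast, slow and regulatory genes of the list, then genes by lowest p, widest and narrowest range, and closest pattern. The number of arrays limits the precision. Same-numbered tumours were not treated as pairs. Alternatives were other normalizations, a filter on dim genes, other probe set rules, array weights, other thresholds and leaving out arrays. Promoters came from RefSeq on GRCm38.p6.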

Additional observations from a re-analysis of the deposited data

Results flagged for a closer look

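In the Dox group, replicate 2 stood apart from the other 3 tumours for most muscle genes. The gap between its value and the next, divided by the range of the 4 tumours, exceeded the critical value for 25 of the 40 genes. The ratio was not taken over all genes, so whether replicate 2 stood apart in muscle genes more than in others was not tested. Among fast genes this ratio was 0.976 for Myh1, 0.935 for Myh2, 0.956 for Myh4, 0.954 for Mylpf, 0.963 for Myl1, 0.979 for Tnnt3, 0.955 for Tnnc2, 0.967 for Tnni2, 0.962 for Pvalb, 0.918 for Atp2a1, 0.857 for Casq1 and 0.931 for Actn3. The mean of the fast genes had a ratio of 0.994. Among structural genes it was 0.949 for Acta1, 0.860 for Actn2, 0.925 for Des, 0.857 for Ttn, 0.984 for Ldb3, 0.872 for Tcap and 0.968 for Myot. For the release channel Ryr1 it was 0.929, and for metabolic genes it was 0.938 for Ckm, 0.931 for Ckmt2, 0.898 for Pygm, 0.886 for Pgam2 and 0.896 for Eno3. No slow gene of the Dox group exceeded the value. In the PBS group, replicate 3 stood apart for Tnnt1, with a ratio of 0.864. In all, 27 of 126 sets of 4 tumours exceeded it, and chance alone gives about 1 in 20. The flags of Dox replicate 2 are not independent, since these genes vary together.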

How the results depend on the processing

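The count of muscle genes called stayed at 0 in 71 of 72 alternative fits. With array weights, Myh1 passed in CP-Dox against Dox (5.38, limma adjusted p = 0.0292), a count of 1. Counts over all genes depended far more on the setting. In CP-Dox against PBS they were 691 as reported, 2665 with array weights, 198 with the compared groups alone, 2 without CP-Dox replicates 1 and 3, 143 at an adjusted p under 0.01, 1314 under 0.10, and 214 to 2363 without 1 array. In Dox against PBS they were 0 as reported, 2 after quantile normalization, 2 with the compared groups alone, 1 without CP-Dox replicates 1 and 3, 2 under 0.10, and 0 to 2 without 1 array. In CP-Dox against Dox they were 28 as reported, 44 after quantile normalization, 47 without the dimmest 40% of genes, 1960 with array weights, 0 with the compared groups alone, 0 without CP-Dox replicates 1 and 3, 1 at 0.01, 143 at 0.10, and 1 to 1150 without 1 array. The median log2 fold change of the muscle genes ran, without 1 array, from -0.20 to 0.62 in CP-Dox against PBS, -1.33 to -0.10 in Dox against PBS and 0.57 to 1.24 in CP-Dox against Dox, and fast minus slow from -0.05 to 1.52, -2.88 to -0.42 and 1.21 to 2.82. Myh4 in CP-Dox against PBS, -0.38 as reported and -1.54 to 1.18 without 1 array, changed sign to 0.34, 0.08, 1.18 and 0.39 without CP-Dox replicate 1, CP-Dox replicate 2, PBS replicate 3 and PBS replicate 4, and to 0.28 without CP-Dox replicates 1 and 3. The cause was not tested. The filter on dim genes left 17 muscle genes and no slow gene, so it gave no fast minus slow value. Deviations from the group means correlated above 0.1 in 8 of 12 same-numbered pairs of tumours. The other 4 did not, and the labels name nothing shared by a number, so the block was kept as an alternative. For each array, its correlations with the arrays of the other groups were also averaged by replicate number. The mean was highest for the array's own number in 8 of 12 arrays, a hint of pairing from the data. With a replicate block the calls over all genes were 995, 0 and 8, and 0 muscle genes were called.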
